A study of Mus musculus with 6 samples.

Results

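The nuclear-encoded subunits of the mitochondrial respiratory chain and ATP synthase were followed in RNA-seq libraries of the mouse paraventricular hypothalamic nucleus (PVH). Genes were taken by symbol: names starting with Nduf followed by a, b, c, s or v and a digit (complex I), Sdha to Sdhd (complex II), Uqcr (complex III), Cox and a digit from 4 to 8 (complex IV), or Atp5 (complex V). In the deposited gene table of 35148 rows, 99 rows matched these names, and the 89 rows with at least 10 counts in at least 3 of the 6 libraries were kept as members. They comprised 41 genes of complex I, 4 of complex II, 8 of complex III, 16 of complex IV and 20 of complex V, and all 89 passed the low-count filter of the test. Among them, 8 rows carry a pseudogene symbol or are copies of a subunit gene (Ndufb1-ps, Ndufb4c, Ndufa12-ps, Ndufs5-ps, Cox5b-ps, Atp5l2-ps, Atp5pb-ps and Atp5k-ps2). They stay in the counts by complex. The 10 matching rows with too few counts were Ndufa11b, Ndufs6b, Uqcrh-ps1, Uqcrh-ps2, Cox6c2, Cox7b2, Cox7c-ps1, Cox8b, Cox8c and Atp5l-ps1.

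All 6 libraries came from PVH tissue of mice carrying loxP-flanked alleles of Ruvbl2 (Ruvbl2fl/fl), a gene for an ATPase of chromatin-remodelling and chaperone complexes. An adeno-associated virus of serotype 2 had been injected into the nucleus 8 weeks earlier, and it carried GFP in 3 libraries (AAV2-GFP) and Cre recombinase with GFP in the other 3 (AAV2-Cre-GFP). The labels used here name neither the promoter that drove Cre nor the cell types infected. Nor do they tie the libraries to separate animals; every p-value therefore rests on the spread between these samples, which may be technical. Poly(A) RNA was sequenced to 41890769 to 54702785 counts per library.

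Oxidative phosphorylation couples electron transfer from NADH and succinate to oxygen, through complexes I to IV of the inner mitochondrial membrane, to proton pumping, and complex V uses the proton gradient to make ATP. Complex II is built only from nuclear genes, whereas the other complexes combine nuclear subunits with a few encoded by mitochondrial DNA. Neurons depend on this pathway for the ATP that restores ion gradients after firing, and in many tissues the nuclear subunit genes are driven by NRF1, the ETS factor GABP, YY1 and the estrogen-related receptors.

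Because these factors are known regulators of the subunits as a group, the RefSeq promoter windows (build GRCm38.p6, 250 bases before to 50 bases after each annotated start) were searched on both strands for a short core of each site. A window was matched for 66 of the 89 members. The NRF1 core GCGCATG occurred in 13 members (19.7%) and in 4.41% of all 27025 genes with a window. CCGGAAG, the ETS core, was present in 17 members (25.8%) against 9.93% of all genes. AAGATGG, the YY1 core, was found in 11 members (16.7%) against 7.28%, and AAGGTCA, the core of the estrogen-related receptors, in 8 members (12.1%) against 5.38%. At least 1 of the first 3 cores was present in 33 of the 66 members, against 19.5% of all genes. The 27025 genes were not limited to those expressed in these libraries, whereas every member passed a count minimum. Whether the cores are more frequent in members than in other expressed genes was not tested. A gene with several starts was counted once, and such a match describes letters in a window, not binding. For each core, the stretch is shown from the member with the smallest p in the comparison described further down that held the core ahead of a RefSeq start. Atp5j has 2 RefSeq windows, and its stretch lies inside the gene's span in the deposited table (84827866 to 84835625). The Cox6b1 stretch overlaps that gene's span (30616861 to 30626151). Capitals mark every match, and each stretch is written in the direction of transcription, from the minus strand. Besides its named core, the first Atp5l stretch and the Atp5j stretch each held an ETS core, and no matches in a stretch overlapped.
Atp5l, NRF1 and ETS cores, chr9:44920893-44920992: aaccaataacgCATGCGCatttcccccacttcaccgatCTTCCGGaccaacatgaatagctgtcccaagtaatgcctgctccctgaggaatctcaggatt
Cox6b1, ETS core, chr7:30626115-30626214: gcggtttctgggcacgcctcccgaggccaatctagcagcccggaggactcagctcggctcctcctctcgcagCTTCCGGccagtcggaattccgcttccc
Atp5j, YY1 and ETS cores, chr16:84835012-84835111: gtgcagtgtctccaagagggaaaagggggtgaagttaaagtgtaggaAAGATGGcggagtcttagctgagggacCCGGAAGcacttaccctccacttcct
Atp5l, estrogen-related receptor core, chr9:44920743-44920842: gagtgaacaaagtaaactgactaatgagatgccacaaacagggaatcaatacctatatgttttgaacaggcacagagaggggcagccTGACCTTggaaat

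Before the comparison, several libraries stood apart in ways that their labels do not give. Ruvbl2 itself, the floxed gene, read 9.90, 7.36 and 8.72 FPKM (counts per gene length and library size) in AAV2-GFP libraries 1 to 3 and 9.53, 9.10 and 9.51 FPKM in AAV2-Cre-GFP libraries 1 to 3, so the libraries labelled AAV2-Cre-GFP held no less of it (fitted log2 difference 0.08 ± 0.11, SE). Markers of PVH neurons were detected in every library, but their summed level ranged from 335 to 811 CPM (counts per library size) in AAV2-GFP and from 255 to 562 CPM in AAV2-Cre-GFP. Transcripts of other organs were present: 10 testis genes summed to 577 CPM in AAV2-GFP 1 and to at most 5.25 CPM elsewhere, 10 kidney genes to 504 and 550 CPM in AAV2-Cre-GFP 2 and 3 and to at most 53.5 CPM elsewhere, and 12 muscle genes to 244 CPM in AAV2-Cre-GFP 3 and to at most 33.2 CPM elsewhere. CT010467, under which ribosomal RNA is annotated, took 2121 to 2246 CPM in AAV2-GFP and 7200 to 17129 CPM in AAV2-Cre-GFP.

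Subunit RNA differed little between the groups, and most subunits lay slightly higher in the libraries labelled AAV2-Cre-GFP. With edgeR's quasi-likelihood test and Benjamini-Hochberg adjustment over 20865 genes, 0 of the 89 members passed an adjusted p of 0.05, in a comparison that called 2 genes in all (0.00959% of those tested). Members with an unadjusted p under 0.05 numbered 17, all higher in AAV2-Cre-GFP, where 8.11% of all genes lay on that side and 9.11% on the other. DESeq2 called 1 member, Atp5c1, higher (adjusted p 0.0481); over all genes it called 3.12% higher and 4.91% lower. The fitted difference was above 0 for 63 members and below 0 for 26, against 49.0% and 51.0% of all genes. The median log2 difference was 0.09 over the members and -0.01 over all genes. Within 0.3 of 0 on the log2 scale lay 80 of the 89 members and 14239 of all 20865 genes. All 3 AAV2-Cre-GFP libraries lay above all 3 AAV2-GFP libraries for 22 members (24.7%; 11.1% of all genes) and below them for 4 (11.7% of all genes). In whole tissue, a different number of cells of a type and a different amount of RNA per cell cannot be told apart.

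By complex, the members of complexes II to V lay further to the AAV2-Cre-GFP side than those of complex I. The median log2 difference was 0.06 for complex I (23 members higher, 18 lower), 0.10 for complex II (4 and 0), 0.14 for complex III (7 and 1), 0.13 for complex IV (12 and 4) and 0.11 for complex V (17 and 3). Complex V includes the low-count pseudogene rows Atp5l2-ps, Atp5pb-ps and Atp5k-ps2. All of these lay above 0, with wide errors (log2 0.51 ± 0.46, 0.29 ± 0.29 and 0.35 ± 0.56, SE). Within complex I, the 7 core subunits, which make up the electron path, had a median of -0.02, with 2 higher and 5 lower, and the 29 accessory subunits, with Ndufb1-ps counted among them, a median of 0.06. These medians were not tested against each other, and single libraries moved several of them. The median of complex I was 0.014 without AAV2-GFP 1, 0.019 without AAV2-GFP 2 and 0.017 without AAV2-Cre-GFP 1. Without AAV2-GFP 1 the medians of complexes II, III and V were 0.053, 0.077 and 0.070. For complex III the median was 0.088 without AAV2-GFP 2 and 0.22 without AAV2-GFP 3. Over all 6 fits that left out 1 library the medians stayed above 0, at 0.014 to 0.086 for complex I, 0.053 to 0.12 for complex II, 0.077 to 0.22 for complex III, 0.11 to 0.19 for complex IV and 0.070 to 0.16 for complex V.

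The spread between the AAV2-GFP libraries was wider than the difference between the groups. Members made up 0.600%, 0.613% and 0.660% of all counts in AAV2-GFP 1 to 3 and 0.674%, 0.675% and 0.665% in AAV2-Cre-GFP 1 to 3. Taking each member relative to its mean over the 6 libraries, the median member stood at log2 -0.10, -0.08 and 0.07 in AAV2-GFP and at 0.03, 0.08 and 0.03 in AAV2-Cre-GFP. AAV2-GFP 3 thus lay with the AAV2-Cre-GFP libraries. It was the highest of the 3 AAV2-GFP libraries in 65 of the 89 members, against 34.6% of all genes. Without AAV2-GFP 3 the median log2 difference of the members was 0.15. Leaving out AAV2-GFP 1 or 2 gave a median over the members of 0.06 or 0.07, and leaving out AAV2-Cre-GFP 1, 2 or 3 one of 0.10, 0.09 or 0.13. Without all 3 libraries that held transcripts of other organs (AAV2-GFP 1 and AAV2-Cre-GFP 2 and 3), the median was 0.06 and 60 of 89 members lay above 0. That fit set 2 libraries against 1, so its AAV2-Cre-GFP side rests on AAV2-Cre-GFP 1 alone.

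**Figure D1:**
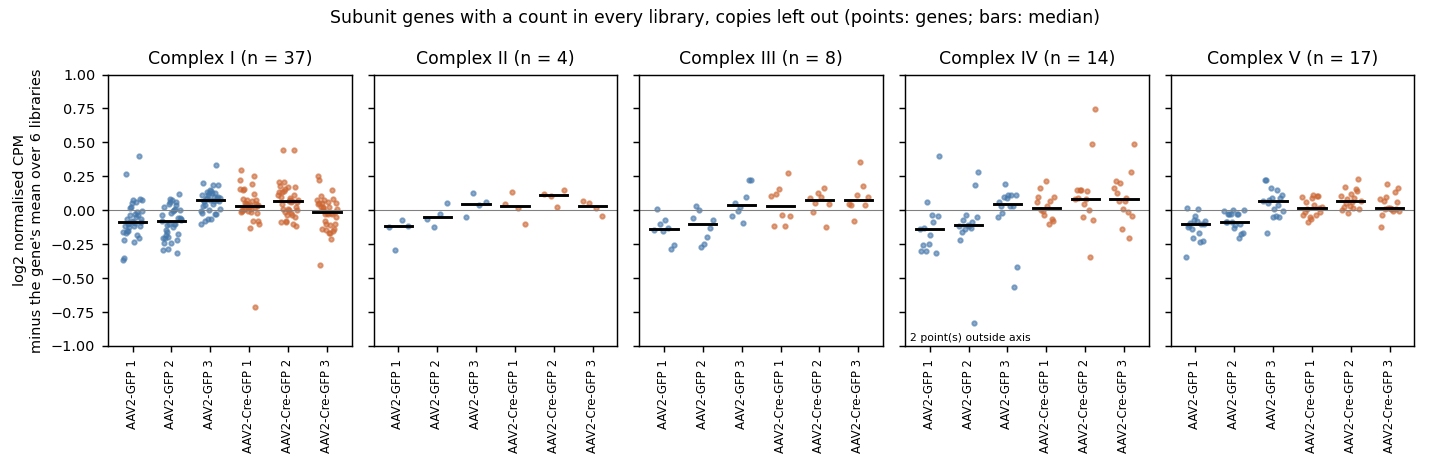
Level of each subunit gene in each library as log2 normalised CPM minus the gene's mean over the 6 libraries (y axis), by complex, with copies and genes lacking a count in a library left out; points are genes and black bars medians. AAV2-GFP 3 sits above AAV2-GFP 1 and 2 and among the AAV2-Cre-GFP libraries.

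Per-library values below are CPM after TMM normalization. In complex I, which oxidises NADH, the smallest p belonged to Ndufs4, an accessory subunit of the peripheral arm that is mutated in Leigh syndrome (GRCm38 chromosome 13, 114287795 to 114388258). Its level was 29.5, 31.2 and 30.7 CPM in AAV2-GFP and 36.7, 35.6 and 34.8 CPM in AAV2-Cre-GFP. The 3 AAV2-Cre-GFP libraries were the 3 highest, and the fitted difference was 17.1% (95% interval 5.03 to 30.6%; edgeR adjusted p 0.165). Ndufa4, named as a complex I subunit and now placed in complex IV, read 61.6, 54.2 and 61.9 CPM against 64.3, 68.1 and 69.9 CPM, with groups that did not overlap (log2 0.19 ± 0.07 SE). Ndufb3, a small subunit of the membrane arm, read 25.7, 32.4 and 33.1 CPM against 38.7, 36.4 and 34.3 CPM. Ndufa1, another membrane-arm subunit, read 11.3, 11.5 and 13.1 CPM against 13.1, 15.3 and 15.8 CPM. Both had all AAV2-Cre-GFP values above the AAV2-GFP values, although AAV2-GFP 3 and AAV2-Cre-GFP 1 read the same to 3 digits for Ndufa1. Their edgeR adjusted p-values were 0.277 and 0.278. Of the 41 complex I members, 5 (12.2%) had all AAV2-Cre-GFP values above all AAV2-GFP values, near the 11.1% of all genes. On the lower side were 3 members, against 11.7% of all genes.

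Ndufc2 and Ndufb10, among the complex I members with the highest FPKM, showed no separation of the groups. Ndufc2, a membrane-arm subunit needed for assembly, averaged 64.8 FPKM and read 55.9, 57.8 and 55.1 CPM against 66.9, 54.9 and 48.5 CPM. The AAV2-Cre-GFP libraries held both its highest and its lowest values, and its log2 difference of 0.01 became -0.13 without AAV2-Cre-GFP 1. Ndufb10, also of the membrane arm, read 77.3, 77.1 and 92.4 CPM against 85.9, 83.9 and 87.2 CPM. For Ndufb10, AAV2-GFP 3 was the highest library of all. On the lower side, Ndufc1, a small membrane-arm subunit, had the most negative difference of complex I. It was singled out after its values were seen. Ndufc1 read 12.7, 10.8 and 12.1 CPM in AAV2-GFP and 10.5, 9.93 and 7.96 CPM in AAV2-Cre-GFP, which did not overlap (log2 -0.33 ± 0.15 SE, edgeR adjusted p 0.326). Ndufb5 and the pseudogene-named row Ndufb1-ps were the other complex I members with every AAV2-Cre-GFP value below every AAV2-GFP value.

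Succinate dehydrogenase (complex II) passes electrons from succinate to ubiquinone and also works in the citric acid cycle. Its membrane anchor Sdhc (chromosome 1, 171127165 to 171150603) read 67.2, 69.7 and 70.6 CPM in AAV2-GFP and 75.5, 79.5 and 76.5 CPM in AAV2-Cre-GFP. These groups did not overlap, and the difference was 11.6% (95% interval 2.18 to 21.8%; edgeR adjusted p 0.208). Sdhd, the second anchor, read 48.6, 54.6 and 64.9 CPM against 65.3, 64.1 and 61.7 CPM, with AAV2-GFP 3 among the AAV2-Cre-GFP values. The catalytic flavoprotein Sdha, the most abundant of the 4 at 108 FPKM, read 492, 507 and 531 CPM against 524, 527 and 523 CPM. Its 95% interval ran from -5.14 to 11.6%. Sdhb, the iron-sulphur subunit, read 58.0, 65.0 and 65.3 CPM against 58.5, 69.6 and 61.0 CPM, which overlapped throughout.

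Complex III moves electrons from ubiquinol to cytochrome c. Uqcrc2, 1 of its pair of large core proteins (chromosome 7, 120635176 to 120659524), read 141, 150 and 152 CPM in AAV2-GFP and 168, 166 and 161 CPM in AAV2-Cre-GFP. That difference of 11.8% (95% interval 2.74 to 21.7%; edgeR adjusted p 0.188) came with no overlap. Its partner Uqcrc1 was the 1 member of complex III on the other side, at 190, 193 and 196 CPM against 174, 187 and 194 CPM. The 5 small subunits around the core all had a fitted difference above 0, with a median log2 difference of 0.15. Uqcr10 read 25.9, 23.8 and 29.2 CPM against 32.0, 31.3 and 31 CPM, and Uqcr11 17.4, 15.4 and 17.2 CPM against 17.8, 19.6 and 23.4 CPM, without overlap in either. Uqcrq, at 37.7, 35.9 and 44.0 CPM against 37.9, 46.1 and 46.6 CPM, and the cytochrome c1 hinge protein Uqcrh, at 59.9, 68.1 and 83.4 CPM against 69.3, 73.6 and 76.6 CPM, overlapped between the groups. For Uqcrh the highest library of all was AAV2-GFP 3.

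Complex IV, cytochrome c oxidase, reduces oxygen, and its nuclear subunits surround a catalytic core encoded by mitochondrial DNA. Cox6b1 (chromosome 7, 30616861 to 30626151), which faces the intermembrane space at the cytochrome c side, had the smallest p of all 89 members. It read 78.6, 79.8 and 83.5 CPM in AAV2-GFP and 90.3, 91.4 and 97.1 CPM in AAV2-Cre-GFP. The gap between the groups was wider than the spread within AAV2-GFP, and the difference was 15.3% (95% interval 5.24 to 26.3%; edgeR adjusted p 0.145, DESeq2 adjusted p 0.0505). Cox6c, a single-span membrane subunit, read 47.1, 49.7 and 60.4 CPM against 62.0, 64.4 and 67.3 CPM (log2 0.30 ± 0.10 SE). Cox7c read 32.9, 35.2 and 40.1 CPM against 44.1, 41.8 and 43.0 CPM, and Cox8a 76.9, 80.1 and 83.2 CPM against 84.4, 93.5 and 88.3 CPM. For these 3 small subunits the groups did not overlap, with AAV2-GFP 3 the nearest library to AAV2-Cre-GFP each time. Cox4i1, the regulatory subunit and at 123 FPKM the most abundant of the complex, did overlap, at 194, 203 and 239 CPM against 225, 233 and 231 CPM. Cox7b, at 46.1, 51.6 and 60.9 CPM against 56.5, 63.1 and 65.2 CPM, also overlapped. Of the 10 main subunits 9 had a fitted difference above 0, and the exception was Cox5a, a matrix-facing subunit, at 54.0, 50.7 and 59.4 CPM against 50.5, 50.1 and 47.1 CPM. Cox5a was named after its values were seen, and its edgeR adjusted p was 0.362.

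ATP synthase (complex V) held the most abundant members. The catalytic F1 head is made of Atp5a1 and Atp5b, at 194 and 145 FPKM, around the rotating shaft Atp5c1. Atp5a1 read 660, 690 and 729 CPM in AAV2-GFP and 709, 730 and 710 CPM in AAV2-Cre-GFP, and Atp5b 676, 712 and 754 CPM against 679, 726 and 717 CPM. Neither separated the groups, and their 95% intervals, -5.37 to 13.0% and -10.0 to 9.08%, are narrow. Atp5c1 (chromosome 2, 10056016 to 10080444), the member that DESeq2 called, read 108, 115 and 104 CPM against 122, 132 and 123 CPM without overlap, a difference of 15.1% (95% interval 4.33 to 26.9%; edgeR adjusted p 0.168). Among these 3 head genes the shaft alone had groups that did not overlap.

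The peripheral stalk holds the head still against the rotor, and its 4 subunits all had a fitted difference above 0 (median log2 0.08). Atp5pb read 133, 126 and 133 CPM in AAV2-GFP and 146, 149 and 139 CPM in AAV2-Cre-GFP (log2 0.15 ± 0.05 SE), while Atp5h overlapped at 84.3, 93.1 and 105 CPM against 92.4, 101 and 94.3 CPM. Of the 5 small membrane subunits, which shape the dimers of the enzyme, all 5 lay above 0 with a median log2 difference of 0.17. Atp5j2 read 44.9, 45.7 and 54.3 CPM against 56.7, 58.7 and 58.0 CPM, and Atp5md 35.4, 35.3 and 36.7 CPM against 40.8, 41.8 and 38.1 CPM. In both the groups did not overlap, and the edgeR adjusted p-values were 0.187 and 0.262.

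Several subunits exist as paralogues used in different tissues, and the share of each set's FPKM held by each isoform was compared over the 6 libraries (exact permutation test, two-sided, with a smallest possible p of 0.1). Cox6a1 held most of its pair, at 97.1% ± 0.885 and 97.3% ± 1.55 (SD, n = 3 each, AAV2-GFP then AAV2-Cre-GFP). Cox7a2 held 46.9% ± 1.74 and 50.1% ± 0.674 of its set, and Cox7a2l, which bridges complexes III and IV in supercomplexes, 52.3% ± 1.69 and 48.9% ± 0.629. Of the 3 genes for the identical mature rotor c subunit, Atp5g3 held 58.9% ± 2.92 and 55% ± 0.885, Atp5g2 27.7% ± 2.92 and 31.6% ± 0.746, and Atp5g1 13.5% ± 0.376 and 13.4% ± 0.170. As shares of CPM, which is not scaled by gene length, Atp5g1 held 27.5% and 27.6% and Atp5g2 19.2% and 22.1%. The order of Atp5g1 and Atp5g2 thus depended on the unit. By CPM, Cox7a2 held 36.3% and 39.4% of its set and Cox7a2l 63.4% and 60.2%. The shares of Cox7a2, Cox7a2l, Atp5g2 and Atp5g3 did not overlap between the groups and reached an exact p of 0.1, which became 0.35 after Benjamini-Hochberg adjustment over the 14 shares tested. As levels, Cox7a2 read 41.1, 45.4 and 52.1 CPM against 56.8, 50.5 and 49.2 CPM, and Cox7a2l 77.6, 77.2 and 86.3 CPM against 85.7, 75.9 and 77.5 CPM. Atp5g2 read 34.1, 43.1 and 45.3 CPM against 46.4, 46.5 and 46.0 CPM, Atp5g3 110, 102 and 127 CPM against 106, 109 and 99.8 CPM, and Atp5g1 53.0, 54.6 and 67.6 CPM against 57.4, 59.0 and 56.6 CPM. Only Atp5g2 of these 5 had levels that did not overlap.

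Isoforms known from other tissues were present at low levels, and the testis forms stood out in 1 library. Cox6b2, the testis form, read 7.21 CPM in AAV2-GFP 1 and 1.53 and 2.77 CPM in the other AAV2-GFP libraries, against 2.60, 2.14 and 2.36 CPM in AAV2-Cre-GFP. Its fitted log2 difference of -0.70 ± 0.51 (SE) was 0.13 without AAV2-GFP 1, the library with the testis transcripts. Cox8c and Cox7b2, also testis forms and below the count minimum, had 273 and 194 counts in AAV2-GFP 1, and Cox8c had 0 counts in each of the other 5 libraries. A count of 0 allows up to 3 counts, for counting error only. The heart and skeletal muscle form Cox6a2 read 2.15, 1.99 and 1.22 CPM against 0.579, 2.74 and 2.29 CPM, and Cox7a1 0.393, 0.557 and 0.331 CPM against 0.463, 0.684 and 0.594 CPM. The third muscle form, Cox8b, was highest at 0.324 CPM in AAV2-Cre-GFP 3, the library with the muscle transcripts, and it lay below the count minimum. Cox4i2, a form known from lung, had 0 counts in AAV2-GFP 1 and 0.751, 0.558, 0.371, 0.574 and 0.828 CPM in the others. Ndufa4l2, a hypoxia-responsive relative of Ndufa4, read 3.05, 1.86 and 2.92 CPM against 1.41, 3.16 and 2.09 CPM. For Cox6a2, Cox7a1 and Ndufa4l2 the groups overlapped.

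**Figure D2:**
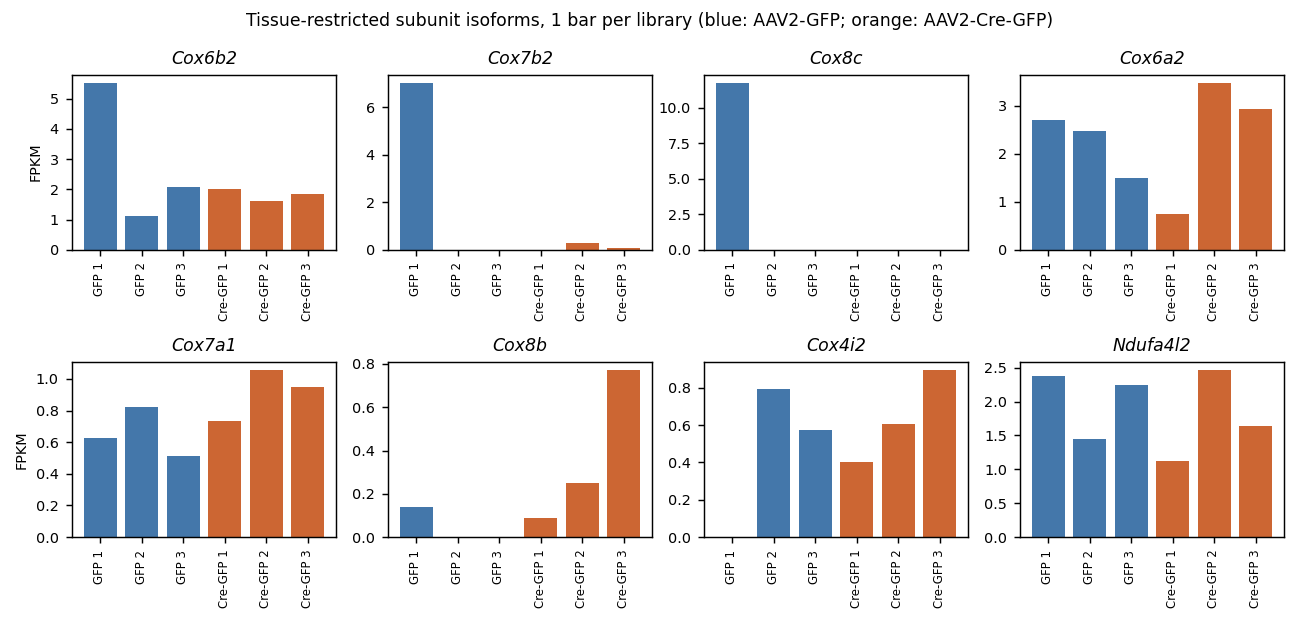
FPKM (y axis, each panel on its own scale from 0) of 8 tissue-restricted isoforms, 1 bar per library, blue for AAV2-GFP and orange for AAV2-Cre-GFP. The testis forms Cox6b2, Cox7b2 and Cox8c stand out in AAV2-GFP 1 alone, and Cox8b is highest in AAV2-Cre-GFP 3.

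Counts of some members are uncertain because a copy elsewhere in the genome shares their sequence. Ndufa12-ps shares 84.9% of its 31-base words with Ndufa12, an accessory subunit of complex I. Ndufa12 read 36.3, 33.4 and 35.9 CPM in AAV2-GFP and 38.2, 51.6 and 34.4 CPM in AAV2-Cre-GFP, and Ndufa12-ps 21.2, 21 and 23.9 CPM against 24.7, 15.5 and 23.9 CPM. AAV2-Cre-GFP 2 was thus highest for the gene and lowest for the copy. The sum of both read 57.5, 54.4 and 59.9 CPM against 62.9, 67.2 and 58.3 CPM, and its log2 difference was 0.13 ± 0.07 (SE), against 0.23 for Ndufa12 alone. For Atp5g1, where copies made up 20.1% of the summed counts, the difference moved from -0.02 to -0.12. Copies also held 20.7% of the sum for Atp5g2, 18.3% for Ndufb4, 14.3% for Atp5l and 13.6% for Uqcrb, and these kept a difference above 0. Exons of some members overlap another gene. The largest overlaps were those of Ndufb6 with Smim27 (39.0% of its exon bases), Ndufa13 with Tssk6 (30.0%), Uqcrc2 with Pdzd9 (19.7%) and Atp5o with Gm15976 (18.1%), all on the other strand, and of Ndufb9 with Gm49356 (19.5%) on the same strand. Whether counting used strand is not given in the sources used here.

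**Figure D3:**
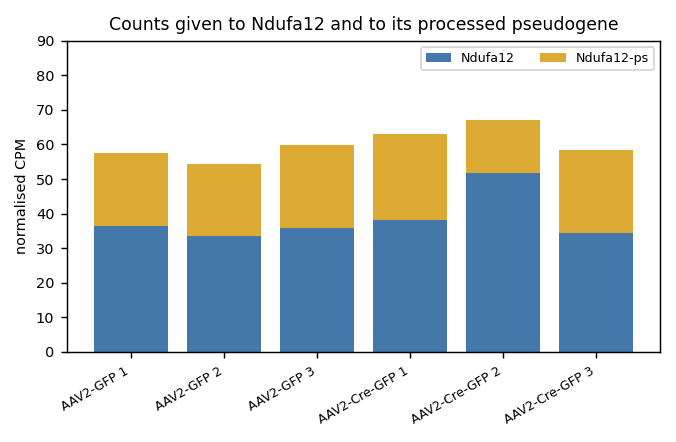
Normalised CPM (y axis) of Ndufa12 and of its processed pseudogene Ndufa12-ps stacked for each library. In AAV2-Cre-GFP 2 the gene reads 51.6 and the copy 15.5, while the sum, 67.2, is nearer to the other libraries.

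Subunit mRNAs are short, and short genes as a whole lay on the AAV2-Cre-GFP side. Of the 14 members with a median protein-coding transcript of at most 500 bases, 13 had a fitted difference above 0, with a median log2 difference of 0.17. All 120 tested genes of that length had a median of 0.11, and the 58 of them with a mean of at least 5 FPKM one of 0.16. From above 500 to 1000 bases the medians were 0.10 over 42 members and 0.08 over all genes, and from above 1000 to 2000 bases 0.01 over 19 members and 0.03 over all genes. The 6 members of above 2000 to 4000 bases had a median of 0.01, and genes over 4000 bases, which include no member, one of -0.06. Across genes, which are not independent replicates and here share the same 6 libraries, Spearman's rho between length and log2 difference was -0.36 over 81 members and -0.16 over 16014 genes. The part of transcript length in the members' differences was not tested.

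**Figure D4:**
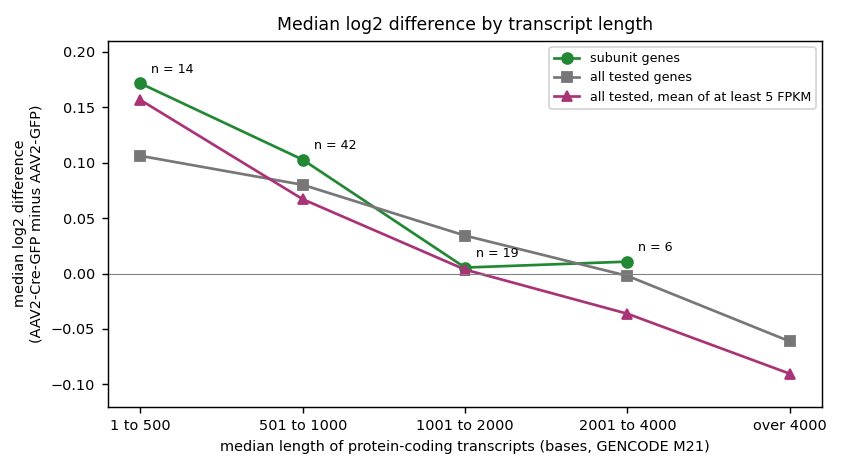
Median log2 difference (AAV2-Cre-GFP minus AAV2-GFP, y axis) by class of median protein-coding transcript length in bases (x axis), for subunit genes, all tested genes, and those with a mean of at least 5 FPKM. All 3 lines are highest for the shortest transcripts, where the subunits stand at 0.17, and the lines of all genes continue below 0 for the longest.

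Related genes were read beside the subunits, by counts only, and edgeR called 0 of them in every list of this kind. The 13 subunits encoded by mitochondrial DNA had 11 fitted differences above 0 and a median log2 difference of 0.06, with 4 at an unadjusted p under 0.05 and 3 called higher by DESeq2. Their sum was 45785, 42256 and 42948 CPM in AAV2-GFP and 42608, 52761 and 48184 CPM in AAV2-Cre-GFP, so AAV2-Cre-GFP 1 lay with AAV2-GFP. The smallest p-values were those of mt-Nd3, at 195, 188 and 216 CPM against 237, 270 and 225 CPM, and mt-Co3, at 2239, 2294 and 2452 CPM against 2506, 3107 and 2893 CPM. Of 47 assembly factors 27 lay above 0 and 20 below (median 0.01), led by Cox16, needed for complex IV assembly (log2 0.50 ± 0.17 SE), and Lyrm7, a chaperone of the complex III iron-sulphur protein (log2 -0.38 ± 0.14 SE). The 7 subunits and carriers that the symbols leave out, with Higd1a (log2 -0.16 ± 0.06 SE) and cytochrome c1, Cyc1 (log2 0.17 ± 0.08 SE), in front, had a median of 0.02. An unadjusted p under 0.05 was reached by 3 assembly factors (2 higher, 1 lower) and 1 of the 7 (lower), and DESeq2 called none.

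Regulators of mitochondrial biogenesis had a median of 0.02, with 12 of 20 above 0 and none at an unadjusted p under 0.05 or called by DESeq2. Nrf1 read 15.7, 21.1 and 20.6 CPM in AAV2-GFP and 23.1, 22.4 and 23.7 CPM in AAV2-Cre-GFP without overlap (edgeR adjusted p 0.323). It was the 1 regulator of the 20 (5%) with all AAV2-Cre-GFP values higher, against 11.1% of all genes. On the lower side there were 0, against 11.7% of all genes. Gabpa, the DNA-binding chain of GABP, read 25.3, 27.1 and 22.8 CPM against 32.3, 26.5 and 29.0 CPM, with overlap. Genes of the citric acid cycle and pyruvate dehydrogenase went both ways (12 of 20 above 0, median 0.05): Suclg2, a succinyl-CoA ligase subunit, read 20.8, 17.8 and 19.3 CPM against 23.4, 30.1 and 32.8 CPM, and Idh3g, of the NAD-dependent isocitrate dehydrogenase, 94.0, 103 and 104 CPM against 116, 116 and 118 CPM. Genes that mark mitochondrial membranes and import lay below 0 in 13 of 22 cases, with a median of -0.04. There Opa1, which fuses inner membranes, read 171, 175 and 170 CPM against 146, 154 and 144 CPM, and Chchd3, of the cristae junctions, 26.5, 24.6 and 26.2 CPM against 29.8, 33.7 and 33.3 CPM. At an unadjusted p under 0.05, 7 of the citric acid cycle list lay higher and 2 lower, and 2 and 5 of the membrane and import list; DESeq2 called 3 higher and 2 lower of the first and 1 and 4 of the second. For none of these genes was the edgeR adjusted p below 0.111.

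Ribosomal protein genes served as another set of short and abundant mRNAs. Of 89 cytosolic ribosomal protein genes tested 69 lay above 0, with a median log2 difference of 0.10 and a sum of 8440, 9076 and 9682 CPM in AAV2-GFP and 9811, 9473 and 9592 CPM in AAV2-Cre-GFP. AAV2-GFP 3 was the highest AAV2-GFP library there too. The smallest p-values were those of Rps27rt and Rps27 (log2 2.72 and -1.53), near-identical copies whose counts may be split between them. Of these genes 22 lay higher and 1 lower at an unadjusted p under 0.05, and DESeq2 called 8 and 1. The 78 mitochondrial ribosomal proteins had a median of 0.04, with 48 above 0, and their smallest p-values belonged to Mrpl42 (log2 0.31 ± 0.09 SE) and Mrpl20 (log2 0.32 ± 0.09 SE); 7 lay higher and 2 lower at an unadjusted p under 0.05, and DESeq2 called none.

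Markers of cell types were read in the same way. All 10 pan-neuronal markers lay below 0 (median log2 -0.18), with sums of 5581 to 5638 CPM in AAV2-GFP and 4551 to 4989 CPM in AAV2-Cre-GFP, and all 8 PVH neuron markers did too (median -0.67). Ependymal markers lay above 0 in 5 of 6 cases (median 0.49), with sums of 139 to 167 CPM against 166 to 221 CPM. The medians of the other lists were 0.09 for 8 astrocyte markers (sums of 4256 to 4336 CPM against 4143 to 4448 CPM), 0.01 for 8 oligodendrocyte markers (2450 to 3026 CPM against 2448 to 2963 CPM), -0.04 for 8 microglial markers (225 to 253 CPM against 235 to 247 CPM) and 0.16 for 8 endothelial and mural markers (185 to 229 CPM against 180 to 249 CPM). Above 0 were 7 astrocyte, 4 oligodendrocyte, 3 microglial and 5 endothelial and mural markers. edgeR called 0 of these markers. At an unadjusted p under 0.05, 7 pan-neuronal and 4 PVH neuron markers lay lower. On the higher side were 5 ependymal, 1 microglial and 1 endothelial or mural marker. Astrocyte markers went both ways, 2 higher and 1 lower. DESeq2 called 3 pan-neuronal, 2 PVH neuron and 1 astrocyte marker lower, and 3 ependymal and 2 astrocyte markers higher. Over all genes, 8.11% lay higher and 9.11% lower at an unadjusted p under 0.05, and DESeq2 called 3.12% higher and 4.91% lower. No marker of these lists was at 0 in every library. Their part in the values of the subunits was not tested.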

How the data were processed

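Per the labels' protocols, poly(A) RNA was made into dUTP libraries with molecular identifiers in the adapters and sequenced as read pairs. The submitters' processing notes name cutadapt, HISAT2, StringTie and build mm9; the sources used here do not give their versions and roles, or any use of identifiers or strand in counting. Of 35024 gene identifiers shared with GENCODE M21, 91.4% have identical positions in the table, so coordinates are given as GRCm38. The authors deposited 1 table with whole-number gene counts, without normalization, and FPKM values, which the authors scaled by gene length and library total; 0 columns of per-sample values were left unmapped.

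Counts were normalised by TMM and fitted with edgeR 4.0.16's quasi-likelihood test (R 4.3.3, filterByExpr with a minimum count of 10, two-sided, no covariates) over 20865 genes; p-values were adjusted by Benjamini-Hochberg and called under 0.05. The scripts were tested on simulated data. Alternatives were DESeq2 1.42.0, other scaling factors, other filters, robust fitting, a block for the replicate number, limma 3.58.1 on log2(FPKM + 0.5) at mean levels of at least 1 FPKM, and each library left out. Summing copies with their gene was added after seeing the data. The members, gene lists and marker lists were chosen with earlier results of these data known. Genes were named by rule: members past the threshold, the 4 with the smallest p and the 3 with the highest FPKM of each complex, all of complex II, all isoforms of paralogue sets, 2 of each gene list, and Ruvbl2. Of these, 1 gene is not reported here. Every pair of libraries differed by more than sampling noise. Intervals cover the fitted error between libraries. Transcript lengths are medians over protein-coding transcripts of GENCODE M21, and promoter windows come from RefSeq.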

Additional observations from a re-analysis of the deposited data

How the results depend on the processing

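No alternative moved the median log2 difference of the members to the other side of 0, and 60 to 70 of the 89 members lay above 0 in the fits that held all 89. The number of members called stayed at 0 except with DESeq2, which called 1 (Atp5c1, log2 0.20, adjusted p 0.0481). The number of genes called over the whole table moved most: 1322 with DESeq2, 9 with RLE and 9 with upper-quartile factors, 22 in a robust fit, 128 with at least 50 counts in 3 libraries, 1 with no low-count filter, 1 without mitochondrially encoded and ribosomal RNA genes, and 1 in the limma fits of FPKM with each of 3 pseudocounts (0.5, 0.1 and 1). Leaving out 1 library gave 1 to 304 called genes, with 304 without AAV2-Cre-GFP 1. The median of complex III ranged from 0.077 (without AAV2-GFP 1) to 0.22 (without AAV2-GFP 3) when 1 library was left out. With AAV2-GFP 1 and AAV2-Cre-GFP 2 and 3 left out, a fit of 2 libraries against 1 that assumes the lone library to vary like the others, 1059 genes were called and the medians of complexes IV and V were 0.057 and 0.046. Differences of single members turned there for Sdhb (-0.15), Uqcrq (-0.067), Uqcrh (-0.12), Cox6a1 (-0.042), Cox6b2 (0.28), Cox4i2 (-0.80), Cox7a2l (0.076), Cox6a2 (-1.45) and Atp5h (-0.093). With AAV2-Cre-GFP 2 and 3 left out, 4 genes were called, and Sdhb (-0.081), Uqcrq (-0.027), Cox6a1 (-0.034), Cox7a2l (0.11) and Cox6a2 (-1.60) turned. Over the fits that left out 1 library, Cox6b2 ranged from -1.07 to 0.13 and turned without AAV2-GFP 1, Atp5g1 from -0.086 to 0.10, turning without AAV2-GFP 3, and Ndufc2 from -0.13, without AAV2-Cre-GFP 1, to 0.13; the cause was not tested. AAV2-GFP 1 holds the highest Cox6b2 value, 7.21 CPM. Deviations from the group means showed no pairing by replicate number, correlating across genes at -0.04, 0.01 and -0.02 for numbers 1, 2 and 3. With 3 libraries per group, such a check cannot exclude that libraries of the same number were handled together. With the replicate number as a block 3 genes and 0 members were called, 62 members lay above 0, and their median was 0.09. Below 1 CPM, as for Cox4i2, Cox7a1 and several pseudogene rows, standard errors were wide.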

Other observations

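Mitochondrial genes that encode no respiratory subunit included several on the AAV2-GFP side, and those named here were picked after their values were seen. Vdac1, the main pore of the outer mitochondrial membrane, read 389, 369 and 386 CPM in AAV2-GFP and 315, 354 and 340 CPM in AAV2-Cre-GFP. Tomm70a, an import receptor of the outer membrane, read 154, 149 and 138 CPM against 125, 128 and 121 CPM. Tomm20, another import receptor, read 318, 315 and 328 CPM against 298, 284 and 282 CPM. For these 3 genes every AAV2-Cre-GFP library lay below every AAV2-GFP library, as for 4 of the 89 subunits and 11.7% of all genes. DESeq2 called all 3 lower (adjusted p 0.0416, 0.0116 and 0.0419), and edgeR called none (adjusted p 0.188, 0.126 and 0.189).

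In the citric acid cycle, citrate synthase, Cs, read 260, 260 and 265 CPM in AAV2-GFP and 221, 234 and 243 CPM in AAV2-Cre-GFP, and Dlat, of the pyruvate dehydrogenase complex, 98.1, 90.4 and 82.3 CPM against 73.6, 75.4 and 75.6 CPM. Fumarate hydratase, Fh1, which acts on the product of complex II, lay on the other side at 50.3, 53.9 and 54.8 CPM against 64.6, 62.8 and 60.4 CPM. The groups overlapped for none of these 3 genes, and the edgeR adjusted p was 0.179, 0.139 and 0.137. In the whole list of 20 genes, every AAV2-Cre-GFP library lay above every AAV2-GFP library for 7 (11.1% of all genes). The reverse held for 2 (11.7% of all genes), so the 3 genes named here do not show the balance of the list. Whether these genes differ from the subunits in their response was not tested.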
